A study of Mus musculus with 1392 samples.

Results

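The peaks described here lie in 2 windows of the mouse genome, around Mecom and around Prdm16, in a single-cell ATAC-seq study of young and old blood stem cells. A peak was a member if it overlapped, by at least 1 base, the Mecom window on chromosome 3 from 29.8 to 30.48 Mb or the Prdm16 window on chromosome 4 from 153.67 to 154.04 Mb, in the mm9 build that the submitters' notes name. The windows held 73 and 51 peaks, 124 of the 115295 peaks of the table, and the rule uses positions only. ATAC-seq uses a transposase to cut DNA that is open in chromatin, so a count in a peak marks open DNA in that cell. The cells were sorted from bone marrow of C57BL/6 mice, as Sca-1+ Kit+ cells without lineage markers that were CD150+, CD48-, CD34- and Vwf+. This sort selects haematopoietic stem cells, and Vwf, which encodes a clotting protein of platelets and vessel walls, marks a platelet-biased subset of them. The labels give age as young or old with no number of weeks, name no transgene or treatment, and do not say how Vwf was read in the sort. The question of the study is how the makeup of this stem cell population changes with age.

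Mecom and Prdm16 are paralogues that encode zinc finger transcription regulators, and both are needed to keep haematopoietic stem cells. Mecom has a pair of well-known start sites. Transcription from the outer one gives the long Mds1-Evi1 protein, which begins with a PR domain, a relative of the SET domain of histone methyltransferases. The inner start site gives Evi1, which lacks that domain. Prdm16 likewise encodes a long protein with a PR domain, and it is also known for its part in brown fat. The selection rule marks the start of Evi1 near 29.91 Mb and that of Mds1 near 30.408 Mb, and gives none for Prdm16. Mecom is transcribed from the higher towards the lower coordinate, so sequence above 30.408 Mb lies upstream of its outer start.

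The DNA just before the start sites is shown because the pair of Mecom start sites share a run of bases there. The RefSeq promoter table, of build GRCm38.p6, held 2 entries for Mecom and 1 for Prdm16. The 250 bases before each start are printed 5′ to 3′ on the minus strand. Their positions are of GRCm38 and cannot be set beside the mm9 positions of the peaks. Capitals mark a run of 15 bases that both Mecom entries hold. No other gene's promoter among 32851 entries holds it on either strand. It was picked as the longest run that the pair share, so its absence elsewhere is no test of it.
Mds1 start, chr3:30509760-30510009: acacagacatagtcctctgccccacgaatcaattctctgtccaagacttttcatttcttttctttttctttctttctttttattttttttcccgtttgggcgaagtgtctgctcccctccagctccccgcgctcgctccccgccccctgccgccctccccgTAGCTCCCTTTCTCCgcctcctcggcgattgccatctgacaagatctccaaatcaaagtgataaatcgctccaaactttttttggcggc
Evi1 start, chr3:30013205-30013454: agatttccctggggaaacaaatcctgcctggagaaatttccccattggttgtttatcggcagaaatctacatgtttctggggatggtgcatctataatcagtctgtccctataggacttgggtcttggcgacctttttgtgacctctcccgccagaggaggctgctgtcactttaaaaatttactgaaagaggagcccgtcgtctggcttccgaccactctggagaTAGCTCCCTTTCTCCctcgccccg
Prdm16 start, chr4:154636874-154637123: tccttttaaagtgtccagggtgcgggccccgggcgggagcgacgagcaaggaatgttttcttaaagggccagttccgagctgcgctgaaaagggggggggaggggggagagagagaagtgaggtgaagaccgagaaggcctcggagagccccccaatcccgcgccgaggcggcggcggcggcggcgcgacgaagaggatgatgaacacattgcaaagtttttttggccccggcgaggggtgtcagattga

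The shared run begins 89 bases before the Mds1 start and 24 bases before the Evi1 start. Just after the start, the Mds1 and Prdm16 entries share an unbroken run of 24 bases, GCGCATGTGCGAAGGTGTCCAAAC, whose first base is base 27 of the Mds1 and base 10 of the Prdm16 transcript. Only these 2 of the 32851 promoters hold it. This run too was picked as the longest that the 2 entries share, so its absence elsewhere is no test of it. The stretch before the Prdm16 start was the richest in G and C of the 3, with 62.4% and 22 CpG dinucleotides, against 50.8% and 14 before Mds1 and 50.4% and 8 before Evi1. Both strands were searched for AGATAA, the core of GATA factor motifs, CCGGAA, that of ETS factors, TGTGGT, that of RUNX factors, TGANTCA, the AP-1 site, TATAAA, the TATA box, and CAGNTG, an E-box. None of these motifs contains another. The only match to these letters was an E-box before the Mds1 start. Other forms of the motifs, GATA forms among them, were not searched. Of all promoters of the same length, 9.99% hold the GATA, 12.0% the ETS, 14.1% the RUNX, 6.75% the AP-1, 12.4% the TATA and 44.8% the E-box letters. A match is only a match of letters, and its absence says nothing about any factor.

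Counts were available for 332 young and 1060 old cells. Titles put the cells in 5 numbered sets, with 181 and 151 cells in young 1 and 2 306 and 380 in old 1 and 2, and the other cells in old 3. What a set stands for (animal, pool or plate) is not stated, so sets served as the replicates and p-values cover only how far sets differ, in part perhaps for technical reasons. Since each set is of 1 age, age and preparation cannot be told apart. Total counts per set ran from 1159957 to 4181770 and median counts per cell from 3604.5 to 11807, with the highest median in young 2. In old 1, 27.8% of cells had under 2000 counts. Levels per set are given in CPM, counts relative to the TMM-adjusted total of the peaks with enough counts to test (TMM corrects for library composition), times 1000000. In young 1, the set with the lowest total, 1 CPM stands for about 1 count. Peaks could not be matched to single genes, because no annotation of mm9 was used, and peaks near a window's edge may belong to neighbours. By the GRCm38 gene table these protein-coding neighbours are Egfem1 and Actrt3 for Mecom, and Arhgef16 and Actrt2 for Prdm16. For the same reason the sort could not be checked against marker genes.

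Both windows were dense in peaks. The Mecom window held 10.7 peaks per 100 kb and the Prdm16 window 13.8, with 4.95% and 7.81% of their length inside a peak. Among 3660 genome tiles of the same length that were cut from the chromosomes, 92.2% held fewer peaks than the Mecom window, and for Prdm16 this share was 97.0% of 6325 shorter tiles. By counts the Mecom window ranked lower, above 74.7% of tiles, and the Prdm16 window above 93.3%. Most members were weak. The median member had 34 counts over all 1392 cells in the Mecom window and 46 in the Prdm16 window, with a range from 2 to 589 and from 8 to 524. A few strong peaks carried much of each locus, since the 5 strongest held 38.0% of the Mecom and 39.7% of the Prdm16 counts. Enough counts for a test were found in 27 peaks of each window.

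Along Mecom, accessibility had its maximum at the outer start. The 1 peak within 5 kb of the Mds1 anchor held 12.5% of the window's counts, and 4 peaks further upstream held 12.1%. The 56 peaks between the start sites held 63.3%, spread over many elements, while the 4 peaks within 5 kb of the Evi1 anchor held 6.20% and 8 peaks beyond it 5.96%. The Mds1 promoter peak took 9.20% of the window's counts in old 2 and 12.6% to 14.5% in the other 4 sets. The region between the starts took 63.7% and 64.2% of the window's counts in young sets and 60.7%, 64.7% and 65.7% in old sets. The Evi1 region took 5.56% and 4.84% in young and 7.46%, 5.82% and 6.15% in old sets, so every old set lay above both young sets by a small margin that was not tested.

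**Figure D1:**
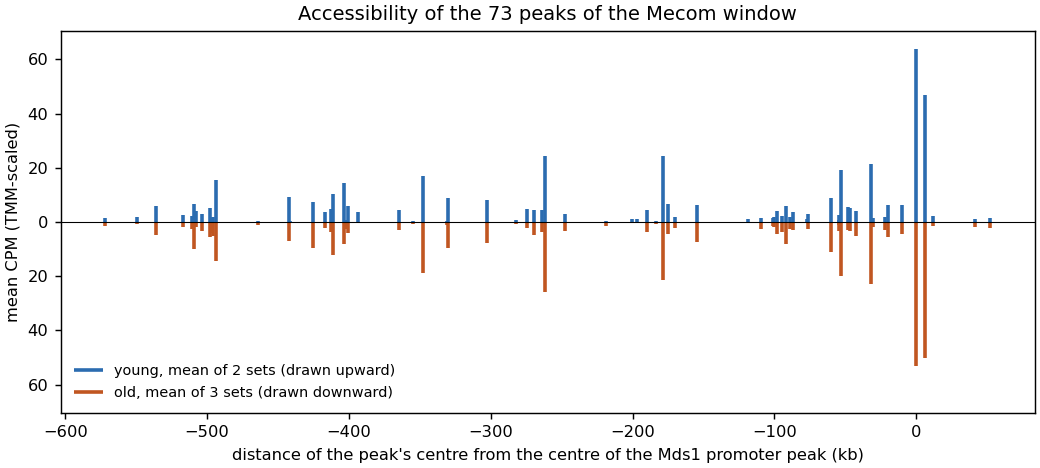
Mean CPM of each of the 73 Mecom peaks against its distance from the Mds1 promoter peak in kb; bars upward are the mean of 2 young sets and bars downward the mean of 3 old sets, and positive distances lie upstream of the outer start. The 2 tallest bars, at 0 and 6.2 kb, stand at the outer start and just upstream of it. The strongest peak within 5 kb of the Evi1 anchor is a bar of moderate height at -493.4 kb.

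At the outer start, the peak on chromosome 3 at 30407085 to 30408442 was the strongest of both windows by counts. It had 589 counts, found in 25.5% of all cells. These were 68 and 134 in young 1 and 2 and 216, 79 and 92 in old 1, 2 and 3. Scaled, these were 67.7 and 60.1 CPM in young sets and 56.7, 41.2 and 61.1 CPM in old sets. Old 3 lay between the young sets and old 2 stood lowest. The log2 fold change of old over young was -0.26 ± 0.21 (SE), with a 95% interval of -0.68 to 0.16 (edgeR adjusted p = 0.609). It was -0.10 without old 2 and -0.75 in cells thinned at random to 1906 counts each (edgeR adjusted p = 0.92 and 0.376).

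A second strong element lay 6229 bp upstream, centre to centre, at 30413343 to 30414642. It had 47.8 and 45.8 CPM in young and 46.7, 56.3 and 47.8 CPM in old sets, and a log2 fold change of 0.10 (95% interval -0.32 to 0.53, edgeR adjusted p = 0.877). In thinned cells this was 0.53, with each cell counted once it was 0.30, and without old 2 it was 0.03. A single cell of young 1 held 13 of the 48 counts of that set here. Old 2, lowest at the Mds1 promoter peak, was highest here. Of the counts in this pair of peaks, 42.3% fell in the promoter peak in old 2, while the other 4 sets had 54.8% to 58.6%. Old 1 and old 3 had 54.8% and 56.1%, near the 58.6% and 56.8% of young 1 and 2, so the low share was found in old 2 alone. The young 1 share includes the 13 upstream counts of that single cell.

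Near the inner start, which serves Evi1, the strongest peak had 152 counts, against 589 at the Mds1 promoter peak. This peak, at 29914204 to 29914543, is called the Evi1 peak here. It was picked as the highest within 5 kb of the anchor at 29.91 Mb and lies towards the edge of that reach. Which peak holds the start itself was not determined. The Evi1 peak is only 339 bp wide and had 18.9 and 12.1 CPM in young and 15.0, 15.1 and 13.3 CPM in old sets. The old sets fell inside the range of the young sets, and the log2 fold change was -0.01, its 95% interval -0.66 to 0.63 (edgeR adjusted p = 0.992). Per kilobase of peak it averaged 43.9 CPM over the 5 sets, next to 42.3 CPM per kilobase in the Mds1 promoter peak of 1357 bp. On that scale these peaks lay above 93.9% and 93.2% of all tested peaks. The other 3 peaks within 5 kb of the Evi1 anchor had 22.4, 10.1 and 7.25 CPM per kilobase.

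Among the weaker peaks there, all nearer to the Evi1 anchor than the Evi1 peak, one at 29911712 to 29912254 had the largest fitted change of the Mecom window. Its levels were 1.00 and 2.69 CPM in young and 6.56, 2.08 and 7.30 CPM in old sets, from 47 counts in all. Old 2 lay between the young sets, and the log2 fold change of 1.32 ± 0.70 (SE) did not pass (edgeR adjusted p = 0.36). It was 1.00 without young 1, 2.39 without young 2 and 1.67 without old 2. This peak passed the count filter only through old 1 and old 3, so without either of them it was not tested. The next peak, at 29911173, had 1.00 and 2.24 CPM in young and 4.72, 4.69 and 2.66 CPM in old sets, from 37 counts, and did not pass the count filter. Its old sets all lay above its young sets. The peak beyond it, at 29909657, had 4.98 and 5.38 CPM in young and 5.51, 4.17 and 6.64 CPM in old sets. There the ages overlapped.

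Between the start sites, 3 peaks were among the 5 strongest of the window. The one at 30144886 to 30146488 had 24.9 and 23.8 CPM in young and 20.7, 25.0 and 31.2 CPM in old sets. The one at 30228933 to 30229754 had 27.9 and 20.6 CPM in young and 18.9, 19.8 and 25.9 CPM in old sets. The one at 30375868 to 30376344, 31.7 kb from the Mds1 promoter peak, had 24.9 and 17.5 CPM in young and 17.6, 26.6 and 24.6 CPM in old sets. The ages overlapped at each of these elements, and their log2 fold changes were 0.04, -0.16 and 0.13. Per kilobase the last was the strongest member of either window, at 46.7 CPM.

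The smallest p among the 27 tested peaks of the Mecom window belonged to one in the same stretch, at 30003664 to 30004574. It had 15.9 and 12.6 CPM in young and 8.13, 7.81 and 7.97 CPM in old sets. Every old set was below both young sets, with little spread among the old ones. The log2 fold change was -0.79 ± 0.36 (SE), and the edgeR p of 0.0322 became 0.266 once adjusted over all 58167 tested peaks. In an edgeR fit without the count filter, on all 73 Mecom peaks, its adjusted p was 0.345. Another peak had the smallest adjusted p of the window in that fit, 0.062. Beyond the Evi1 start, the peak at 29898040 went the other way in all sets, with 4.98 and 8.08 CPM in young and 10.2, 9.38 and 9.96 CPM in old sets (log2 fold change 0.50, edgeR adjusted p = 0.596). Its size rested on the young sets, at 0.30 without young 1 and 1.01 without young 2.

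The Prdm16 window had its strongest accessibility in 3 elements, the widest peak and those -94.8 and -105.2 kb from it, where minus means towards lower coordinates. The peak with the most counts, on chromosome 4 at 153915350 to 153916598, had 88.7 and 48.9 CPM in young and 44.1, 45.8 and 46.5 CPM in old sets. Young 1 stood far above the other 4 sets, which lay within a few CPM of each other. The log2 fold change of -0.54 ± 0.22 (SE) did not pass (edgeR adjusted p = 0.197) and shrank to -0.10 without young 1. Without young 2 it was -0.94, and this peak then passed (edgeR adjusted p = 0.0455), in a fit that left young 1 as the only young set and called 1.61% of all tested peaks. With each cell scored as open or not, it was -0.28. A single cell held 24 of the 89 counts of young 1 here, with 524 counts over all sets.

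**Figure D2:**
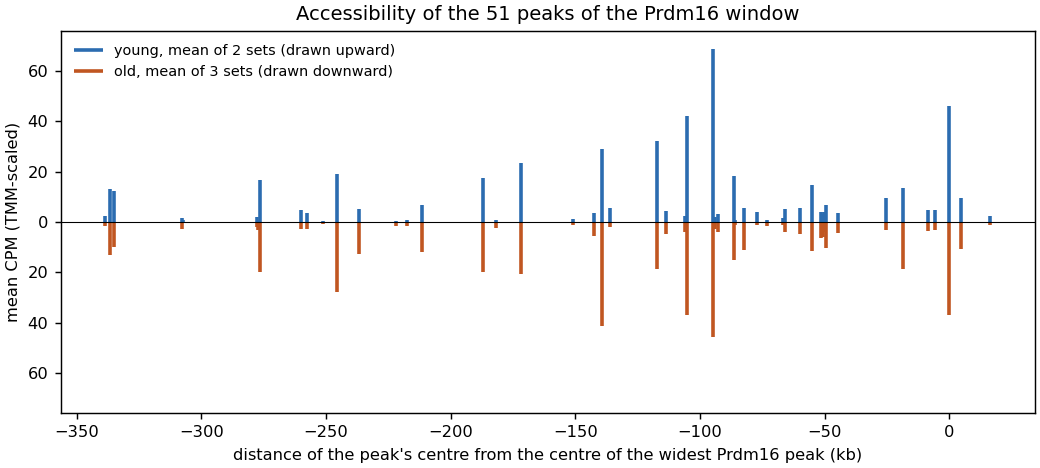
Mean CPM of each of the 51 Prdm16 peaks against its distance in kb from the widest peak of the window; bars upward are the mean of 2 young sets and bars downward the mean of 3 old sets. The tallest bars stand at 0, -94.8, -105.2 and -139.3 kb, and at -94.8 kb the young bar is raised by young 1 alone.

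The widest Prdm16 peak, 2060 bp at 154009734 to 154011794, lies towards the upper end of the window. Its levels were 52.8 and 39.5 CPM in young and 46.2, 39.1 and 25.2 CPM in old sets. Old 3 was the low set, and the ages overlapped (log2 fold change -0.24 ± 0.24 (SE), edgeR adjusted p = 0.681). The value was -0.03 without old 3, -0.05 without young 1, -0.43 without old 1, -0.44 without young 2 and -0.71 in thinned cells. Spread over its width it reached 19.7 CPM per kilobase, against 43.9 in the strongest peak. The peak at 153905097 to 153906060 had 43.8 and 40.4 CPM in young and 37.5, 34.9 and 38.5 CPM in old sets. Old sets were slightly below young sets there, with a log2 fold change of -0.18 that was 0.02 when each cell was counted once and 0.49 when cells were thinned to 1 depth, so its direction is not settled.

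Peaks in the middle of the Prdm16 window went in both directions. At 153871028 to 153871898 all old sets were higher, with 36.5, 39.6 and 47.8 CPM against 28.9 and 28.7 CPM in the young sets. At 153764455 to 153765735 they were higher too, with 26.8, 28.1 and 27.9 CPM against 15.9 and 22.4 CPM. At 153892961 to 153894121 all old sets were lower, with 19.9, 19.3 and 16.6 CPM against 35.9 and 28.3 CPM. None of these passed adjustment, with log2 fold changes of 0.50 ± 0.24, 0.46 ± 0.27 and -0.73 ± 0.26 (SE) and edgeR adjusted p values of 0.304, 0.424 and 0.127. In thinned cells the value at 153871028 was 0.003, so the higher level of the old sets was not seen in that 1 random draw at equal depth. With each cell counted once it was 0.51. In cells thinned to 4000 counts instead, 12.3%, 12.1% and 14.2% of old cells had a count there, against 10.6% and 10.9% of young cells. At 153764455 the log2 fold change was 1.18 in thinned cells, 0.30 without young 1 and 0.81 without young 2. In cells thinned to 4000 counts the ages overlapped at 153764455. There 7.0%, 7.2% and 9.3% of old cells had a count, against 6.8% and 8.5% of young cells. Peaks of both directions lay side by side, since the higher one at 153871028 and the lower one at 153892961 lie at -139.3 and -117.2 kb from the widest peak.

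Among the tested members, the nearest to a call were a pair of weak Prdm16 peaks. Each passed the count filter only through the age where it was high, young at 153985167 and old at 153773632. Their fold changes and p-values carry that selection. The one at 153985167 to 153985878 had 9.96 and 8.97 CPM in young and 3.93, 2.60 and 2.66 CPM in old sets, from 54 counts in all. Its log2 fold change was -1.51 ± 0.48 (SE; edgeR adjusted p = 0.0699), and it ran from -1.77 to -1.38 with 1 set left out. The one at 153773632 to 153774509 had 4.98 and 4.94 CPM in young and 11.0, 19.8 and 7.30 CPM in old sets. Its log2 fold change was 1.35 ± 0.44 (SE; edgeR adjusted p = 0.0795). At this peak a single cell gave 21 of the 38 counts of old 2, with 107 counts over all sets. The log2 fold change was 0.97 without old 2 and 0.71 with each cell counted once per peak (edgeR adjusted p = 0.374 and 0.485).

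**Figure D3:**
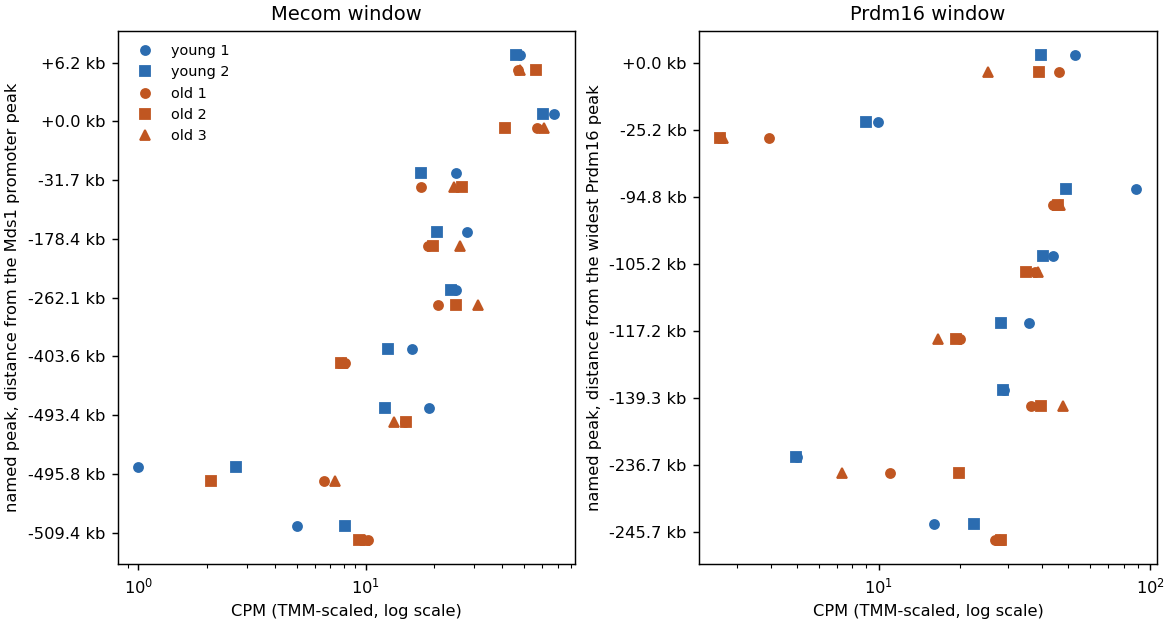
CPM on a log axis in each of the 5 sets for the 17 peaks named by rule, 9 in the Mecom window (left) and 8 in the Prdm16 window (right), labelled by distance from the Mds1 promoter peak or the widest Prdm16 peak; blue points are young sets and orange points old sets. The strong Mecom peaks show overlapping ages, and the ages are apart at 7 of the 8 Prdm16 peaks, in both directions; 3 peaks of each window were picked for their small p, and over all tested peaks the ages are apart in 13 of 27 in the Prdm16 window and in 33.2% over the genome.

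No peak of either window passed the test between the ages, among 27 tested in each. The edgeR quasi-likelihood test, at an adjusted p under 0.05, called 3.17% of the 58167 peaks tested over the genome. DESeq2, fitted without the count filter on all 73 Mecom and 51 Prdm16 peaks, called none in either window as well. It had 1 Mecom and 4 Prdm16 peaks at an unadjusted p under 0.05. Its share over all peaks was not taken, so these counts have no background. At an unadjusted edgeR p under 0.05 there was 1 Mecom peak, lower in old, and there were 6 Prdm16 peaks, 3 higher and 3 lower in old, where the share over all tested peaks was 15.4%. Young and old sets were fully apart in 4 Mecom peaks (1 higher and 3 lower in old) and in 13 Prdm16 peaks (8 higher and 5 lower), against 33.2% of all tested peaks. The median log2 fold change was 0.03 in the Mecom window and 0.17 in the Prdm16 window, with -0.01 over all tested peaks, and 15 of 27 values were above 0 in each window. As shares of the 27 tested peaks, those without overlap made up 14.8% in the Mecom and 48.1% in the Prdm16 window, on either side of the share over all peaks, and those at an unadjusted p under 0.05 made up 3.7% and 22.2%. With the set number as a replicate block, fitted on sets 1 and 2 of each age, 1 Prdm16 peak was called, that at 153773632 (log2 fold change 1.71, edgeR adjusted p = 0.0247), where 1.84% of all tested peaks were called. Set numbers were not found to pair the sets, and that fit leaves out old 3.

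**Figure D4:**
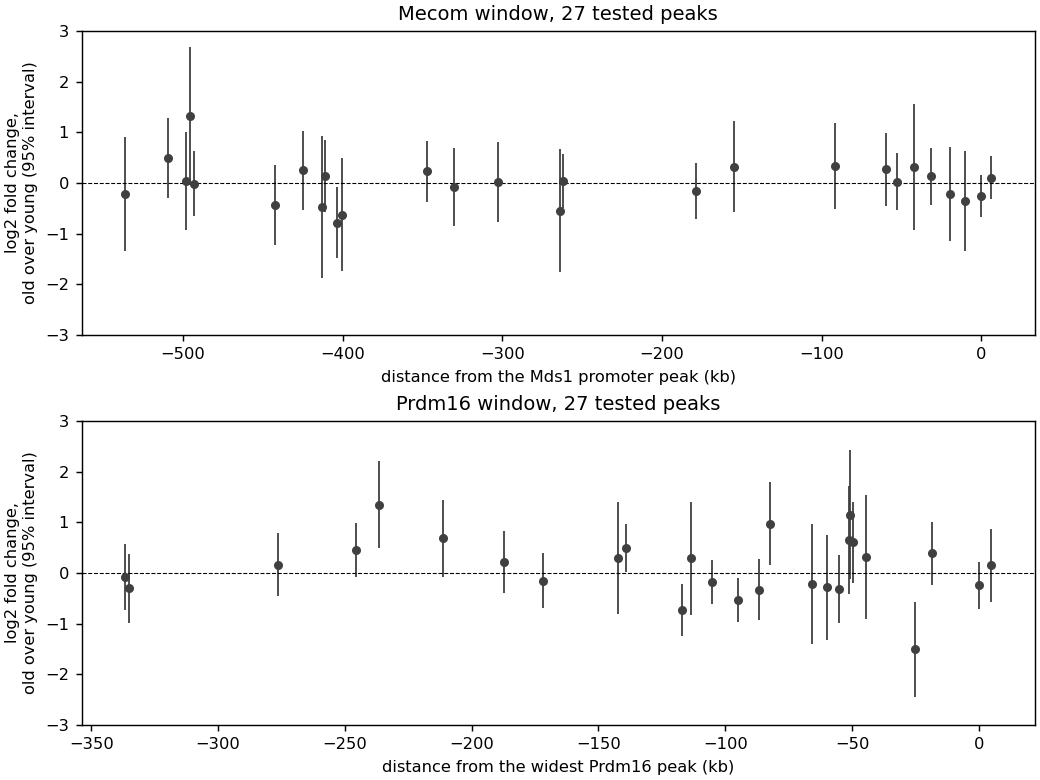
Fitted log2 fold change of old over young with its 95% interval for the 27 tested peaks of the Mecom window (top) and of the Prdm16 window (bottom), against distance in kb from the Mds1 promoter peak and from the widest Prdm16 peak. Most intervals include 0, the Mds1 promoter peak at 0 kb has one of the narrowest, and the lowest point is the Prdm16 peak at -25.2 kb.

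The size of change that these counts could show differs between peaks. At the Mds1 promoter peak and the upstream element the 95% intervals stayed within 0.68 on the log2 scale of 0. The median standard error over tested members was 0.40 in the Mecom and 0.35 in the Prdm16 window. Counts were also simulated for all tested peaks, with 1 dispersion of 0.0248 for every peak. The same test found 18% of 100 peaks with a log2 change of 1 and 80% of 100 with a log2 change of 2. No other peak was changed, so far fewer peaks changed there than were called in the data, and the adjustment differed. The rates are over weak and strong peaks together and do not carry over to single members. In that setting most changes of the smaller size went without a call.

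Each locus as a whole took nearly the same part of the counts at both ages. The Mecom window held 0.0403% and 0.0398% of all counts in young and 0.0388%, 0.0404% and 0.0446% in old sets. The means were 0.0401% ± 0.00035 (SD, n = 2) and 0.0413% ± 0.0030 (SD, n = 3). The Prdm16 window held 0.0457% and 0.0397% in young and 0.0436%, 0.0431% and 0.0450% in old sets. The means were 0.0427% ± 0.0042 (SD, n = 2) and 0.0439% ± 0.00098 (SD, n = 3). The ages overlapped in both windows, with a log2 ratio of old to young of 0.04 in each. Scaled to the TMM total of tested peaks instead, the ratios were -0.04 and -0.04, so no direction can be given.

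In single cells, accessibility at these loci was sparse. With each cell thinned to 1906 counts, which left out 4, 5, 84, 13 and 34 cells of the sets in the order above, 52.5% and 51.4% of young and 56.8%, 52.0% and 55.9% of old cells had a count in any Mecom peak. For the Prdm16 window these were 57.1% and 51.4% of young and 57.7%, 56.4% and 55.3% of old cells. The ages overlapped for Prdm16, and for Mecom old 2 lay between the young sets. Without thinning, the share of cells with a count at the Mds1 promoter peak was 25.4% and 45.0% in young and 38.9%, 15.0% and 17.4% in old sets. These shares followed the median counts per cell except that old 3, which had the lowest median, lay above old 2.

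At equal depth, few cells had a count at any single element. In the thinned cells the Mds1 promoter peak had a count in 10.7% and 10.3% of young cells and in 7.66%, 4.36% and 5.88% of old cells. The exact binomial 95% interval was 6.59% to 16.3% in young 1 and 2.51% to 6.98% in old 2, and these intervals cover counting error only. The gap between the ages came in part from the draw. Averaged over all possible thinnings, the shares were 9.47% and 9.83% in young and 9.70%, 5.74% and 8.45% in old sets, and old 1 then lay between the young sets. On the same average the upstream element was open in 5.63% and 7.91% of young and 7.90%, 9.52% and 7.58% of old cells. The Evi1 peak had 3.44% and 2.73% of young and 3.61%, 2.97% and 2.46% of old cells. The strongest Prdm16 peak had 11.2% and 7.58% of young and 7.57%, 7.67% and 7.64% of old cells, so that young 1 again stood apart from 4 nearly equal sets.

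Counts at the main elements were also set side by side cell by cell. Of 833 cells with at least 4000 counts, thinned to that depth, 137 had a count at the Mds1 promoter peak and 135 at the upstream element, and 20 had both. The upstream element had a count in 14.6% of cells with a count at the promoter peak and in 16.5% of the others. The strongest Prdm16 peak had a count in 18.2% of cells with, and in 16.2% of cells without, a count at the Mds1 promoter peak. For the strongest and the widest Prdm16 peak, within 1 gene's window, the values were 15.9% and 12.1%. These are descriptions over cells of all sets together, and cells of a set are not replicates.

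The members whose levels over the 5 sets ran most like the main elements were not the nearest ones. Likeness was the Euclidean distance between log2 CPM values centred on their mean over the 5 sets. Closest to the Mds1 promoter peak was the Prdm16 peak at 153955353, at a distance of 0.24, followed by that at 153950629, at 0.34, which share the low value in old 2. Closest to the Evi1 peak were the Mecom peak at 30104942, at 0.24, and the Prdm16 peak at 153838044, at 0.26. Closest to the strongest Prdm16 peak were the Mecom peak at 30003664, at 0.47, and the Prdm16 peak at 153892961, at 0.50, both of which were also highest in young 1. With 5 points, such likeness is a description only.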

How the data were processed

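Single-cell ATAC-seq libraries were made cell by cell with a plate-based method, per the labels' protocols. The authors deposited 1 table of raw counts, whole numbers per peak and cell with no normalization, as its values show. Trim Galore, FastQC, Bowtie2, SAMtools, Picard and the build mm9 are named in the submitters' processing notes. Not given in the sources used here are the peak caller, the cells it used, the unit counted (reads or fragments), any shift of cut sites and the removal of duplicates. Kept duplicates would raise counts at peaks held by few cells. Peak positions are as the table gives them, and its base of counting is not stated.

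The members and lists were chosen with earlier results of these data known. All columns matched 1 title each. Counts were summed per set (Python 3.11.15, pandas 2.3.3, numpy 2.4.6) and tested over the whole table with TMM scaling, filterByExpr at a minimum count of 10, robust dispersion, the quasi-likelihood test (edgeR 4.0.16, R 4.3.3) and Benjamini-Hochberg adjustment over 58167 peaks. A peak was called at an adjusted p under 0.05. The standard error was the log2 fold change over the root of F, and intervals span 1.96 of it on either side. The test was checked on simulated data, where 2 unchanged peaks were called. DESeq2 1.42.0 was an alternative. Binomial intervals are Clopper-Pearson (scipy 1.17.1). Log2 CPM for likeness used an offset of 0.5.

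Named peaks were any called member, the peak with the highest mean CPM within 5 kb of each anchor, the 5 highest members by mean CPM and the 3 with the smallest p in each window. The last were thus picked by the contrast itself. No pathway genes or cell type markers were listed, since peaks were tied to genes only by the windows.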

Additional observations from a re-analysis of the deposited data

How the results depend on the processing

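No Mecom peak was called under any alternative run. In the Prdm16 window, 0 peaks were called under all alternatives except the set number as a replicate block (1), an adjusted p under 0.1 (2) and 1 set left out (0 to 1, the call without young 2, where the lone young set is assumed to vary like the old sets). The set numbers pair no sets by the labels, and deviations of same-numbered sets correlated at -0.0758 and -0.000706. The block changed no other call. The share of all tested peaks with an adjusted p under 0.1 was not taken, so the 2 calls there have no background.

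The log2 ratio of a window's share of counts was 0.18 for Mecom and 0.14 for Prdm16 in thinned cells. For Prdm16 it ran from -0.056 (without young 2) to 0.15 (without young 1) with 1 set left out. The difference of old from young in the share of cells with a count depended on depth. In percentage points it was 0.68 at the Evi1, -4.54 at the Mds1 and -2.78 at the strongest Prdm16 peak after thinning. It was -2.46, -11.5 and -13.5 without thinning, and -1.59, -2.44 and -1.58 at 4000 counts. The expected value over all thinnings, which was added after seeing the data, was -0.07 at the Evi1 and -1.69 at the Mds1 peak.

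Of 240 log2 fold changes of the 17 named peaks under alternatives, 224 kept direction and side of the threshold, 2 passed it (153773632 with the block, 153915350 without young 2) and 14 changed sign, in 5 peaks close to 0. For 29914204 these were 0.085 with library totals, 0.087 binarized, 0.025 without cells under 2000 counts and 0.021 with the replicate block. Binarized values were -0.074 for 30144886, -0.001 for 30375868 and 0.021 for 153905097, which had 0.49 in thinned cells, and the block gave -0.054 for 30144886. The cause of these changes was not tested. Leaving out 1 set gave -0.35 to 0.27 for 29914204, -0.072 to 0.24 for 30144886, -0.38 to 0.036 for 30228933 and -0.13 to 0.37 for 30375868. Depth limits the weakest peaks most, and some were not tested in thinned cells or at a minimum count of 30.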
